A study of Rattus norvegicus with 20 samples.

Results

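Cytosolic ribosomal protein genes encode the protein components of the large (60S, Rpl) and small (40S, Rps) subunits of the ribosome that translates nuclear mRNA. They were taken here as the probe sets whose platform annotation names exactly 1 gene with a cytosolic ribosomal protein symbol (Rpl or Rps with a number, including forms ending in a or l, or Rplp0, Rplp1, Rplp2 or Rpsa). This gave 44 of the 14217 genes measured, 30 of the large and 14 of the small subunit, from 50 probe sets. For the 5 genes with several probe sets the one with the highest mean level was used. Of the 44, 42 passed the filter on low values (above log2 4 in at least 5 arrays) and were tested. Rpl30 and Rpl3l did not pass. A further 32 probe sets carry such a symbol together with another gene or pseudogene and are described apart, because they cannot be assigned to 1 gene. Through them 26 ribosomal protein symbols, Rplp1 among them, are on the array but not among the 44.

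The study asked how gene expression in globular bushy cells changes while the synapse they form matures. These neurons of the ventral cochlear nucleus project across the midline to the medial nucleus of the trapezoid body (MNTB), and each axon ends there in a giant terminal, the calyx of Held. In Sprague Dawley rats a fluorescent cholera toxin B tracer was injected into that nucleus, the animals were killed 24 h later, and 200 labelled cells per animal were cut from 12 µm brainstem sections by laser microdissection. The RNA was amplified linearly in 2 rounds, labelled with biotin and read on 1 array per animal: 6 at postnatal day 3 (P3, just after the calyx forms), 9 at P8 (juvenile, near hearing onset) and 5 at P21 (mature). All animals carried the tracer and no other treatment, genotype or sex is given in the labels. Levels below are log2(intensity + 1), on which a difference of 1 is a doubling, and differences are between group means with their standard errors from limma. A pooled sample of cells cannot tell fewer expressing cells from less RNA per cell.

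Every ribosome holds 1 copy of most of these proteins, and their genes are usually expressed in near-fixed proportions in all growing cells. Vertebrate ribosomal protein mRNAs begin with a run of pyrimidines (C or T), the 5′ terminal oligopyrimidine or TOP motif, through which the mTOR pathway adjusts how much of them is translated. Neurons carry ribosomes in the soma, in dendrites and, during growth, in axons, where some ribosomal protein mRNAs are also present.

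The length and place of the pyrimidine run differed between genes in their RefSeq promoter sequences (build GRCr8). The windows below hold 25 bases before and 25 bases from the annotated start, 5′ to 3′ on the gene's strand, and capitals mark the longest run of C and T. They show long runs (Rpl35, Rpl22), runs across the annotated start (Rps15, Rplp0), runs that end before it (Rps15a, Rpl5), the shorter runs of Rpl12, Rpl24 and Rpl11, all 3 of which fell, and that of Rpl39, which was not called and whose run lies downstream of the annotated start.
Rpl35 (chr3:43165897-43165946, minus strand): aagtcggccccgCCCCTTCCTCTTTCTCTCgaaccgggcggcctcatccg
Rpl22 (chr5:168117936-168117985, plus strand): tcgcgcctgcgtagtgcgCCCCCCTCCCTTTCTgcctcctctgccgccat
Rps15 (chr7:10068091-10068140, minus strand): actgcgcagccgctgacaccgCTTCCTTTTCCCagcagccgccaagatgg
Rps15a (chr1:181860260-181860309, minus strand): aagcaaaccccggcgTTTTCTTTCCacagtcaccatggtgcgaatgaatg
Rplp0 (chr12:46718366-46718415, minus strand): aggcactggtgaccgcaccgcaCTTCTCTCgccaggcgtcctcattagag
Rpl5 (chr14:1995201-1995250, minus strand): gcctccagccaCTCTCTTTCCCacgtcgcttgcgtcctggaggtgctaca
Rpl12 (chr3:36661915-36661964, plus strand): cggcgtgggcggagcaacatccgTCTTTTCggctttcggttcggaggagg
Rpl24 (chr11:58128381-58128430, minus strand): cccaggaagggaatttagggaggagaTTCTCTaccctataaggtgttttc
Rpl11 (chr5:153560778-153560827, minus strand): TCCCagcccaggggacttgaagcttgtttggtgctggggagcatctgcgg
Rpl39 (chrX:121195872-121195921, minus strand): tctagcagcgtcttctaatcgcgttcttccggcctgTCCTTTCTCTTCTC

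The promoter table held 37 of the 44 genes. A run of at least 8 pyrimidines lay in the 50-base window of 27 of them (73.0%), against 19.4% of all 33469 promoters in the table. A run of at least 10 lay in 22 (59.5%), against 8.81% of all, and the median longest run was 11 against 5 bases. The base at the annotated start was C in 14 (37.8%), against 24.1% of all. In the whole 300-base promoters, searched on both strands, CCGGAAG, a core bound by ETS and GABP factors, was found in 8 (21.6%, against 8.75% of all). TATAAA was found in 5 (13.5%, against 14.2%), and CTTTCC, which can overlap a pyrimidine run, in 16 (43.2%, against 26.4%). These are matches of letters only, and annotated starts can lie some bases from the used ones. The run did not sort the genes by their change. Of the 26 tested genes with a run of at least 8, 23 were called lower at P21 than at P3 (median difference -0.84), and so were all 10 without one (median -0.86).

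Among the P8 arrays, replicates 5 to 9 differed from the other 15 arrays in their controls. Their spike-in probe sets averaged 12.8 to 13.7 on the log2 scale, against 8.29 to 9.09 on the other arrays, and their median intensities were 58.9 to 67.5 against 23.8 to 32.5. The labels give no difference between these and P8 replicates 1 to 4. The comparisons therefore use P3, P8 replicates 1 to 4 and P21 in 1 fit. P8 replicates 5 to 9 are shown apart, and counts over all 20 arrays stand beside the main ones. Ages are said to overlap or not on the 15 arrays of that fit, unless P8 replicates 5 to 9 are named. The 16 measured markers of fast auditory neurons averaged 8.06 at P3, 9.32 in P8 replicates 1 to 4 and 10.35 at P21. Not all were bright at P3, where Pvalb averaged 3.61 and Syt2 4.18. From P3 to P21 13 of the 16 rose, against 22.6% of all genes. Some markers of other cells were detected as well. Only 1 of 4 inhibitory neuron genes (Slc6a5), 1 of 11 microglial genes (Itgam) and 1 of 10 endothelial and mural genes (Pdgfrb) lay below log2 4 on all 15 arrays, and none of the 12 oligodendrocyte or 9 astrocyte genes did. A gene that is high at 1 age only also passes that limit. At P3 the oligodendrocyte genes averaged from 1.55 (Opalin) to 9.01 (Cnp) and the astrocyte genes from 3.13 (Slc1a2) to 10.76 (Aqp4). Levels within each list differed widely. At P3 the inhibitory genes averaged from 2.76 (Slc6a5) to 9.42 (Gad1) and the microglial genes from 1.44 (Trem2) to 6.04 (Aif1). The endothelial and mural genes averaged from 2.21 (Pdgfrb) to 7.66 (Tek).

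Between P3 and P21 the ribosomal protein genes fell together. Of the 42 tested, 36 were lower at P21, 0 were higher and 6 were not called, by limma at an adjusted p under 0.05. The background in this comparison was 20.5% of 11834 genes called lower and 22.6% higher. The median difference was -0.82, with a range from -2.02 to 0.14, against a median of 0.04 over all genes tested, and 41 of the 42 differences were negative. In 33 genes every P21 array lay below every P3 array, which held for 14.5% of all genes. Both subunits took part: 24 of 28 large subunit genes (median -0.84) and 12 of 14 small subunit genes (median -0.81) fell. These genes are bright, so the count was also set beside other bright genes, a comparison chosen after seeing the data. Among probe sets with a mean of at least log2 8, 34 of 38 ribosomal protein genes were lower, against 25.9% of 2798 genes, whose median difference was 0.02. With all 20 arrays in the fit 12 of 44 were called lower and 0 higher, all 12 among the 36, against 7.97% of all genes lower and 7.37% higher.

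**Figure D1:**
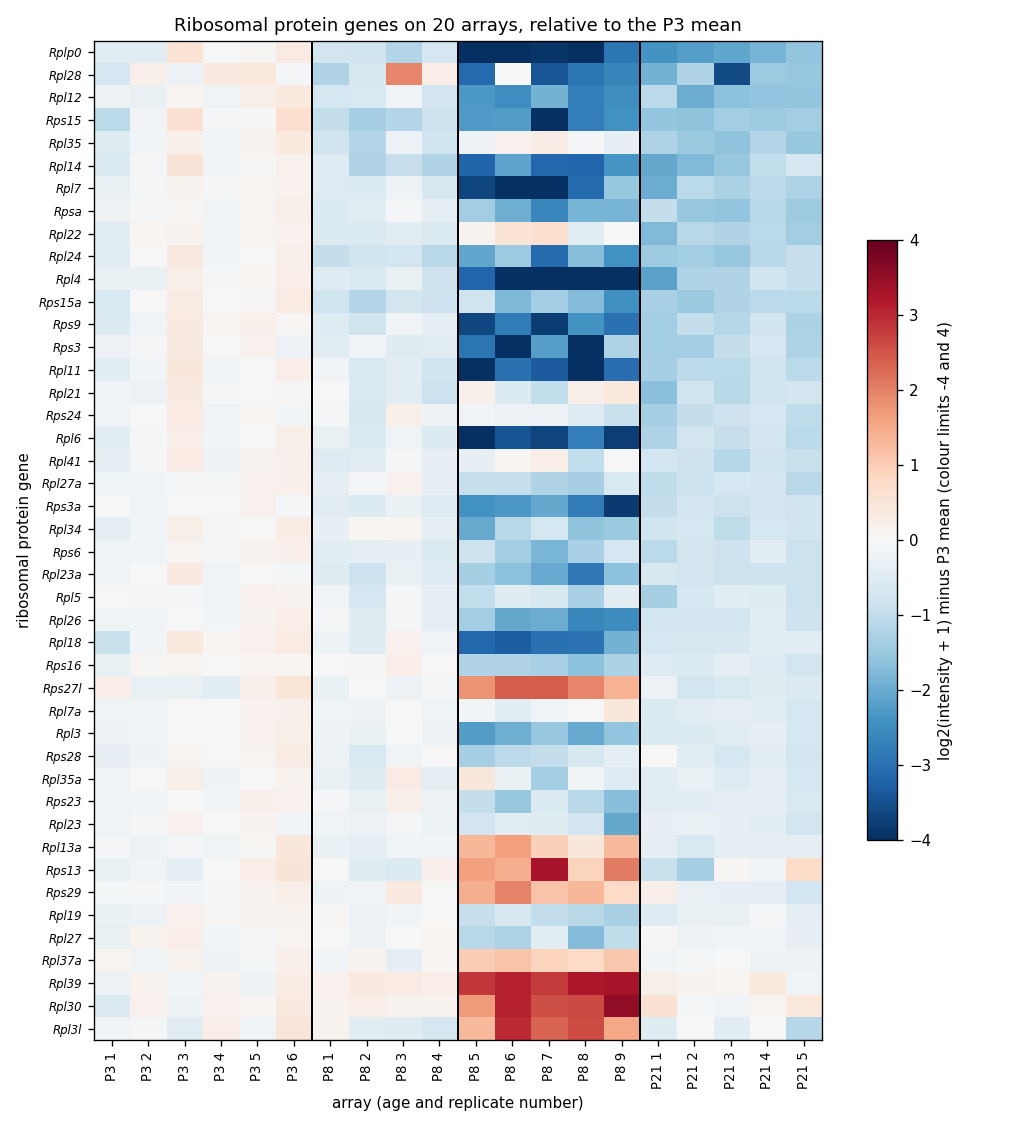
Level of each of the 44 ribosomal protein genes (rows) on each of the 20 arrays (columns, age and replicate number) as log2(intensity + 1) minus the gene's mean at P3, blue for lower and red for higher. Rows are sorted by the P21 minus P3 difference; nearly all are blue at P21, and P8 replicates 5 to 9 show deep blue and red rows side by side.

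Rplp0, which anchors the acidic stalk that recruits translation factors to the large subunit, had the largest difference. Its level at P3 ran from 8.84 over a median of 9.31 to 9.84. In P8 replicates 1 to 4 it was 8.55, 8.51, 8.14 and 8.60, and at P21 it was 6.92, 7.09, 7.21, 7.44 and 7.73. With P8 replicates 1 to 4, no array of one age overlapped another age, and the level stepped down at each. It fell by 2.02 ± 0.20 from P3 to P21 (limma adjusted p = 1.74e-06), by 0.85 ± 0.21 to P8 (adjusted p = 0.0143) and by 1.17 ± 0.22 from P8 to P21 (adjusted p = 0.00198). It is the only 1 of the 3 stalk genes with a probe set of its own.

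Rpl12, which sits at the base of that stalk, was the next of the clearly expressed genes. At P3 it ran from 9.55 over 9.79 to 10.23, in P8 replicates 1 to 4 it was 9.13, 9.21, 9.69 and 9.06, and at P21 8.76, 7.87, 8.20, 8.26 and 8.28. P21 lay below both earlier ages without overlap, whereas P8 replicate 3 lay inside the P3 range. It fell by 1.56 ± 0.18 from P3 to P21 (limma adjusted p = 8.52e-06), and from P8 to P21 it fell by 1.00 ± 0.20 (adjusted p = 0.00303), while the P8 minus P3 difference of -0.56 ± 0.20 did not pass (adjusted p = 0.0591).

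Of the 6 measured genes at the exit of the peptide tunnel, where the growing chain leaves the ribosome, 4 fell from P3 to P21. Over all genes tested 20.5% were called lower, and over the ribosomal protein genes 85.7%. Rpl35, which forms part of the docking surface for the signal recognition particle, ran from 10.05 over 10.56 to 10.94 at P3, was 9.74, 9.39, 10.31 and 9.74 in P8 replicates 1 to 4 and 9.30, 9.06, 8.93, 9.37 and 9.04 at P21. The P21 arrays lay below all others, and P8 overlapped P3 through 1 array. It fell by 1.41 ± 0.18 over the whole span (limma adjusted p = 2.41e-05), with differences of -0.75 ± 0.20 to P8 and -0.65 ± 0.20 after it (adjusted p = 0.0165 and 0.034). Without P8 replicate 2 the first of these had an adjusted p of 0.0548, and without P8 replicate 3 the second had 0.105.

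Rpl22, an RNA-binding protein of the large subunit's outer surface, ran from 9.76 over 10.27 to 10.35 at P3. In P8 replicates 1 to 4 it was 9.59, 9.59, 9.74 and 9.60, and at P21 it was 8.42, 9.06, 8.96, 9.09 and 8.78. With these P8 arrays the 3 ages did not overlap. It fell by 1.31 ± 0.15 over the whole span (limma adjusted p = 6.63e-06) and by 0.77 ± 0.17 after P8 (adjusted p = 0.00449). The earlier step of -0.54 ± 0.16 passed (adjusted p = 0.0298) but did so in only 8 of 15 fits that left out 1 array, with 0.0609 without P8 replicate 2. Rpl23a and Rpl26 were the other tunnel exit genes that fell, by 0.78 and 0.70.

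Rpl39, the small protein lining the tunnel itself, gave the single positive difference. It ran from 6.41 over 6.65 to 6.94 at P3, was 6.83, 7.01, 6.99 and 6.93 in P8 replicates 1 to 4, and 6.88, 6.80, 6.72, 7.04 and 6.49 at P21. The 3 ages overlapped. Its P21 minus P3 difference was 0.14 ± 0.14 (limma adjusted p = 0.453), with a 95% confidence interval from -0.16 to 0.43, so a fall of the size seen for most of the genes lies outside the interval while a small one does not.

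The other 5 genes without a call were Rps13, Rps29, Rpl19, Rpl27 and Rpl37a, listed because they missed the threshold. The intervals of Rpl27 (-0.42 to 0.14) and Rpl37a (-0.39 to 0.16) leave out the median difference of the group. That of Rps13, a dim probe set at 4.89 at P3, spans -0.97 to 0.35 and includes it. Rpl19, at the tunnel exit, differed by -0.31 (adjusted p = 0.069, interval -0.58 to -0.03), and Rps29, a zinc-binding protein of the small subunit, by -0.31 (adjusted p = 0.159, interval -0.67 to 0.05).

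**Figure D2:**
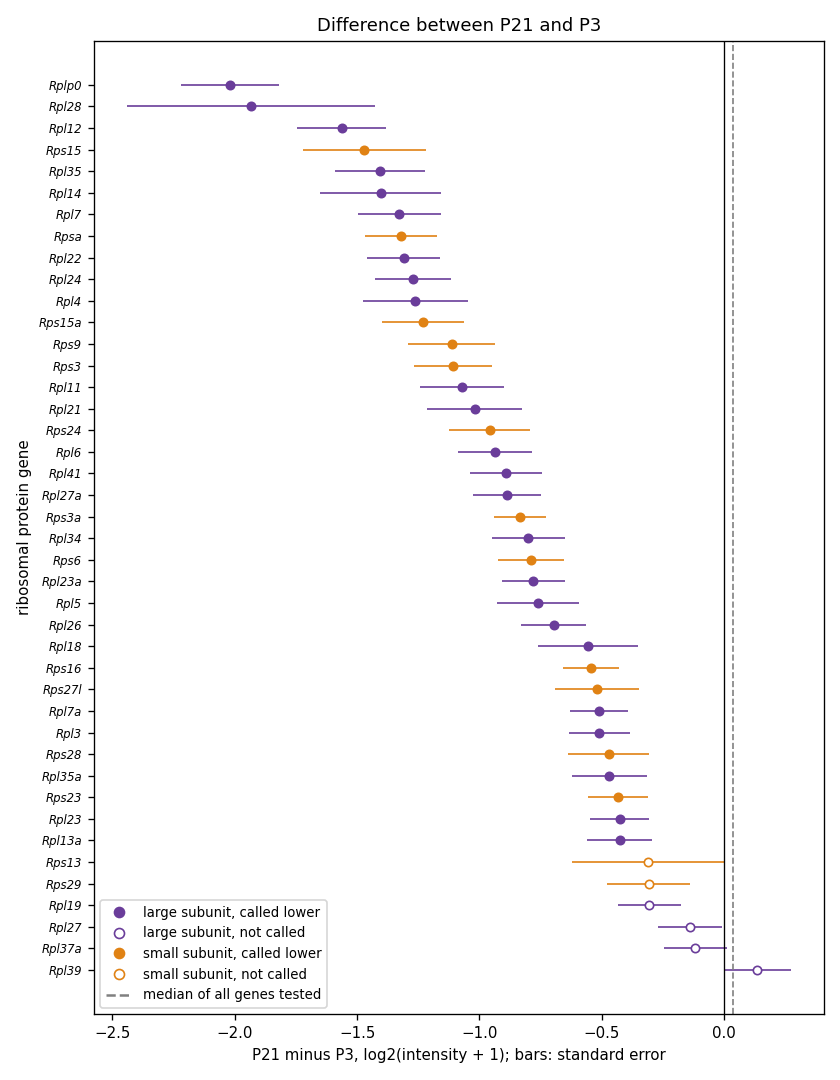
Difference of means between P21 and P3 in log2(intensity + 1) for the 42 tested ribosomal protein genes, with standard errors from limma; filled points were called lower, open points were not called, purple is the large and orange the small subunit. Differences run from -2.02 for Rplp0 to 0.14 for Rpl39, and the dashed line marks the median of all genes tested (0.04).

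The other large subunit genes named by their p-values were Rpl7 and Rpl24. Rpl7, which binds ribosomal RNA at the surface of the large subunit, ran from 10.35 over 10.68 to 10.81 at P3, was 10.13, 10.10, 10.44 and 9.99 in P8 replicates 1 to 4 and 8.66, 9.55, 9.38, 9.59 and 9.41 at P21. P21 lay below both earlier ages. It fell by 1.33 ± 0.17 from P3 to P21 (limma adjusted p = 1.96e-05) and by 0.85 ± 0.19 from P8 (adjusted p = 0.00543), with -0.48 and an adjusted p of 0.0793 before that.

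Rpl24, which reaches toward the small subunit in a bridge between both, had its call before P8 rather than after. It ran from 8.62 over 9.05 to 9.41 at P3, was 8.09, 8.24, 8.28 and 7.95 in P8 replicates 1 to 4 and 7.60, 7.69, 7.55, 7.94 and 8.12 at P21. All P8 arrays were below all P3 arrays, and P8 and P21 overlapped. It fell by 0.91 ± 0.17 to P8 (limma adjusted p = 0.00242) and by 1.27 ± 0.16 over the whole span (adjusted p = 1.35e-05), and the later difference of -0.36 ± 0.17 did not pass (adjusted p = 0.162).

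Rpl5 and Rpl11 form, with 5S ribosomal RNA, the particle that also binds Mdm2 and so links ribosome assembly to p53. Rpl11 ran from 9.497 over 9.91 to 10.42 at P3, was 9.81, 9.36, 9.54 and 9.16 in P8 replicates 1 to 4 and 8.63, 8.90, 8.90, 9.16 and 8.87 at P21. Rpl5 ran from 10.67 over 10.83 to 11.04 at P3, was 10.72, 10.18, 10.80 and 10.51 at P8 and 9.54, 10.16, 10.40, 10.38 and 10.004 at P21. For both genes P21 was below P3 on every array, and P8 overlapped P3. From P3 to P21 Rpl11 fell by 1.07 ± 0.17 and Rpl5 by 0.76 ± 0.17 (limma adjusted p = 0.000157 and 0.00197). Of the single steps only that of Rpl11 after P8 passed (-0.57, adjusted p = 0.0458), and it held in 4 of 15 fits that left out 1 array, with 0.124 without P8 replicate 1.

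In the small subunit Rpsa had the smallest p. It encodes the protein of the small subunit's solvent side that is also known as the laminin receptor. It ran from 10.01 over 10.21 to 10.46 at P3, was 9.66, 9.78, 10.14 and 9.86 in P8 replicates 1 to 4, and 9.26, 8.70, 8.65, 9.11 and 8.81 at P21. Only P21 was separate from the other ages. It fell by 1.32 ± 0.15 over the whole span (limma adjusted p = 5.33e-06) and by 0.95 ± 0.16 after P8 (adjusted p = 0.000964), with -0.37 and an adjusted p of 0.117 before.

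Rps3a, a core protein of the small subunit near the mRNA exit, changed less but with little scatter. It ran from 10.83 over 10.96 to 11.15 at P3, was 10.52, 10.41, 10.69 and 10.46 in P8 replicates 1 to 4, and 10.002, 10.21, 10.10, 10.19 and 10.17 at P21. With these P8 arrays the ages did not overlap. It fell by 0.83 ± 0.11 from P3 to P21 (limma adjusted p = 2.15e-05), by 0.45 ± 0.11 to P8 (adjusted p = 0.0156) and by 0.39 ± 0.12 after P8 (adjusted p = 0.0322, but 0.0804 without P8 replicate 3).

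Rps15 and Rps15a were called before P8 and not after it. Rps15a ran from 9.57 over 10.22 to 10.52 at P3, was 9.39, 9.03, 9.47 and 9.36 in P8 replicates 1 to 4 and 8.90, 8.72, 8.99, 9.12 and 9.11 at P21. Rps15, which takes part in the export of the small subunit from the nucleus, ran from 7.69 over 8.76 to 9.46 at P3, was 7.83, 7.46, 7.62 and 7.94 at P8 and 7.23, 7.16, 7.44, 7.34 and 7.41 at P21. P8 lay below P3 on every array for Rps15a, and for Rps15 it overlapped the lowest P3 array. To P8 they fell by 0.89 ± 0.18 and 1.07 ± 0.27 (limma adjusted p = 0.00404 and 0.0134). After P8 their differences of -0.34 and -0.40 did not pass (adjusted p = 0.211 and 0.343). Over the whole span Rps15a fell by 1.23 ± 0.17 and Rps15 fell by 1.47 ± 0.25 (adjusted p = 3.35e-05 and 0.000262). Whether one step was larger than the other was not tested for any gene.

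Rps16, near the decoding site of the small subunit, was called after P8 and not before. It ran from 9.73 over 10.06 to 10.11 at P3, was 10.01, 10.04, 10.27 and 10.001 in P8 replicates 1 to 4 and 9.47, 9.47, 9.60, 9.47 and 9.28 at P21. P3 and P8 overlapped and P21 lay below both. Its P8 minus P3 difference was 0.08 (limma adjusted p = 0.7), and it then fell by 0.62 ± 0.13 (adjusted p = 0.00347). From P3 to P21 it fell by 0.54 ± 0.12 (adjusted p = 0.00147).

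Rps6, the ribosomal protein phosphorylated by S6 kinase and a common readout of mTOR activity, ran from 10.64 over 10.83 to 11.04 at P3. It was 10.40, 10.47, 10.49 and 10.24 in P8 replicates 1 to 4 and 9.74, 10.08, 9.99, 10.40 and 9.96 at P21. Both later ages lay below P3 and overlapped each other. It fell by 0.79 ± 0.14 over the whole span (limma adjusted p = 0.00028). The single steps of -0.42 and -0.37 did not pass (adjusted p = 0.0567 and 0.101).

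Rps27l and Rpl3l are copies of Rps27 and Rpl3. Rps27l, a p53 target in other cells, was dim: it ran from 4.79 over 5.18 to 5.70 at P3 and was 4.97, 4.49, 4.61, 4.73 and 4.67 at P21. The ages overlapped. The fall by 0.52 ± 0.17 passed (limma adjusted p = 0.0235) in 10 of 15 fits that left out 1 array, with 0.0592 without P21 replicate 2. Rpl3l, the muscle form of Rpl3, was not tested, with 3.14 to 4.07 at P3 and no P21 array above 3.58. Rpl28 was the other dim gene called: singled out after its values were seen, it fell by 1.94 ± 0.51 (adjusted p = 0.00622) from a mean of 4.91 at P3 to 2.98 at P21, where 1 array read 1.32.

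**Figure D3:**
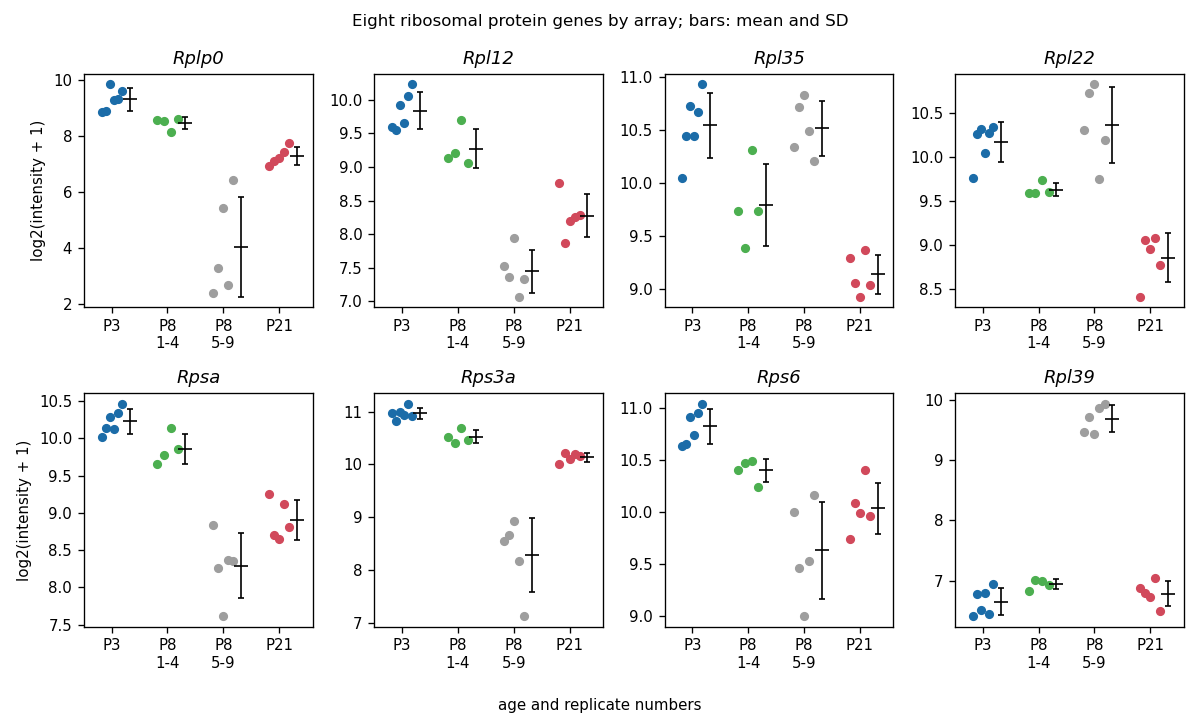
Level in log2(intensity + 1) of 8 ribosomal protein genes on each array, by age and replicate numbers; bars show the group mean and SD (P3 n = 6, P8 replicates 1 to 4 n = 4, P8 replicates 5 to 9 n = 5, P21 n = 5). Rplp0 and Rpl22 step down at both ages when P8 replicates 1 to 4 are read, Rpl39 stays between 6.41 and 7.04 there, and the grey P8 replicates 5 to 9 lie far below for Rplp0 and far above for Rpl39.

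Most genes declined in order. In 38 of the 42 the means descended from P3 over P8 replicates 1 to 4 to P21, which held for 22.7% of all genes tested. The later step, which spans more days, was the larger in 29, and the same count over all genes was not made. From P3 to P8 9 genes were called lower and 0 higher (Rplp0, Rpl14, Rpl22, Rpl23a, Rpl24, Rpl35, Rps3a, Rps15 and Rps15a), against 8.0% of all genes called lower and 9.32% higher. The median difference was -0.27, against 0.01 for all genes. Without P8 replicate 2 the count of 9 calls was 5. In 8 genes P8 did not overlap P3, against 6.52% of all genes. From P8 to P21 19 were called lower and 0 higher, against a background of 10.1% lower and 9.71% higher. The median difference was -0.42 and all 42 differences were negative. The count of 19 calls was 10 without P8 replicate 3 and 11 without P21 replicate 3. In 21 genes the arrays did not overlap, against 7.69%. Both steps share the P8 arrays. Of the tested genes 4 were called in both steps, and 12 were called over the whole span but in neither step. Neither count has a share over all genes to set beside it, because that was not computed.

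With all 20 arrays the picture of the steps changed. From P3 to P8 22 genes were lower and 2, Rpl30 and Rpl39, higher, 7 of the 22 being among the 9 above (background 12.0% lower and 15.5% higher). From P8 to P21 9 were lower and 0 higher, 4 of them among the 19, with a median difference of 0.06 (background 10.6% lower and 10.9% higher). Of the 9 P8 arrays in that fit 5 are replicates 5 to 9.

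Within those 5 arrays the genes scattered in both directions. Set against P8 replicates 1 to 4, with no test because the labels do not separate the sets, 25 genes lay wholly below, 7 wholly above and 10 overlapped. Over all genes tested 19.3% lay wholly below and 18.9% wholly above. The median difference was -1.08, against 0.01 for all genes, with a range from -4.41 to 2.75. Rplp0 read 2.41, 3.28, 5.41, 2.70 and 6.41 on replicates 5 to 9, all lower than on any other array. Rpl4 differed by -4.20, Rps3 by -3.43 and Rpl6 by -3.17.

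Other genes went up on the same arrays. Rpl39 read 9.48, 9.72, 9.44, 9.87 and 9.94, all higher than on any other array, and Rps27l differed by 2.13, Rps13 by 2.08 and Rpl13a by 1.36. Rpl35 read 10.34, 10.72, 10.83, 10.49 and 10.21 and Rpl22 10.31, 10.73, 10.83, 9.76 and 10.19, within or near their P3 ranges. Rplp0 and Rpl35, which both fell across the other 15 arrays, were thus low and high on these 5.

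Averaged over the 44 genes, the level was 9.50 ± 0.18 at P3 (SD, n = 6) and 8.68 ± 0.10 at P21 (SD, n = 5). At P8 it was 9.17 ± 0.13 for replicates 1 to 4 (SD, n = 4) and 8.33 ± 0.14 for replicates 5 to 9 (SD, n = 5). Their share of the summed intensity of an array was 1.31 ± 0.14% at P3, 0.785 ± 0.048% at P21, 1.06 ± 0.08% for the former and 0.779 ± 0.078% for the latter P8 arrays. No P21 array (at most 8.85) reached the lowest P3 array (9.21) in the mean level.

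Probe sets outside the 42 tests gave the same direction. Of the 32 probe sets that carry a ribosomal protein symbol with another gene, all 32 had a lower mean at P21 than at P3, against 47.6% of all genes tested. In 25 the arrays did not overlap, against 14.5% of all genes, and the median difference was -0.95 with a range from -1.98 to -0.01. The second probe sets of Rpl14, Rpl3, Rpl7 and Rps24 differed by -0.56, -1.09, -1.11 and -0.57, and the 2 others of Rpsa by -0.84 and -1.15. Only for those of Rpl7 and of Rpsa at -0.84 did every P21 array lie below every P3 array. The rest overlapped, and that of Rpl14 was dim, with means of 3.01 at P3 and 2.44 at P21. Ribosomal protein genes have many processed pseudogenes of near-identical sequence, and probe sets of the shared kind can bind their transcripts too.

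The 3′ minus 5′ controls check how far amplified RNA reaches toward the 5′ end, with a larger difference for shorter copies. For GAPDH it was 2.91 ± 0.27 at P3 (SD, n = 6), 3.27 ± 0.42 in P8 replicates 1 to 4 (SD, n = 4) and 3.99 ± 0.66 at P21 (SD, n = 5). P21 exceeded P3 by 1.08, with every P21 array above every P3 array (two-sided exact permutation p = 0.00216, adjusted p = 0.019 over 36 tests of array measures). The steps to and from P8 gave an adjusted exact permutation p of 0.237 and 0.2. For beta-actin it was 4.70 ± 0.30, 4.29 ± 0.19 and 4.32 ± 0.69. Its P21 minus P3 difference of -0.38 had the opposite sign and did not pass (exact permutation adjusted p = 0.343). The beta-actin 5′ probe set was dim, with a mean of 4.99 at P3 and 4.24 at P21, while its 3′ level went from 9.69 to 8.56. A 5′ value this low limits what the beta-actin difference can show.

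With the GAPDH difference as a covariate in the fit, 32 of the 42 genes were lower at P21 than at P3 and 0 higher, with a median of -0.99, against 11.8% of all genes lower in that fit. With that of beta-actin 35 were lower and 0 higher, with a median of -0.88, against 19.0% of all genes lower. P8 replicates 5 to 9 had the smallest mean of both controls, 2.19 ± 0.33 for GAPDH and 1.90 ± 0.72 for beta-actin (SD, n = 5), and their place in the differing levels of these arrays was not tested.

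**Figure D4:**
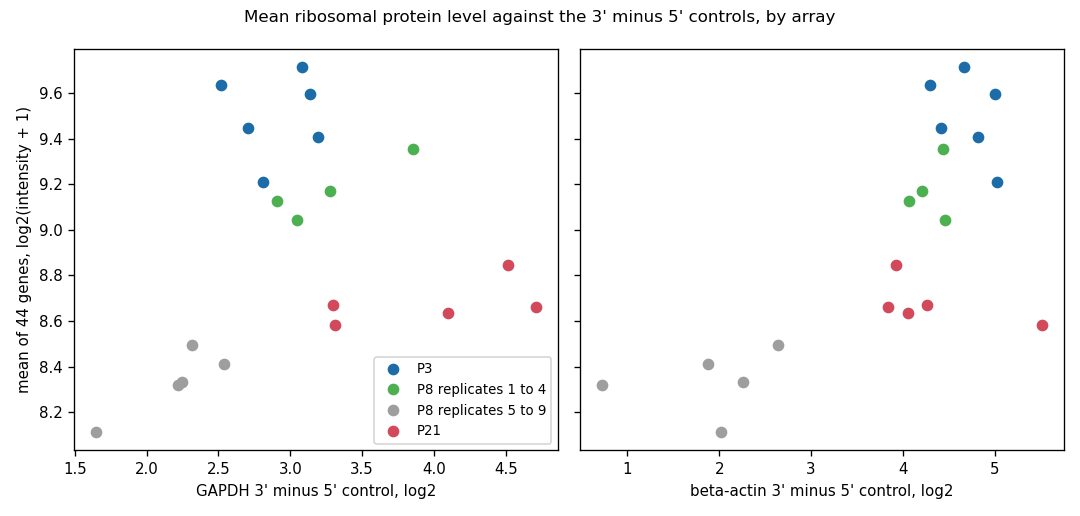
Mean level of the 44 ribosomal protein genes in log2(intensity + 1) against the 3′ minus 5′ control differences, GAPDH on the left and beta-actin on the right, 1 point per array, coloured by age with P8 replicates 5 to 9 in grey. The P21 arrays lie below the P3 arrays at GAPDH differences that exceed those of P3, and the grey arrays have the lowest mean of both controls and lie below all others in the mean level.

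Markers of other cells moved with age as well. All 12 measured oligodendrocyte and myelin genes rose from P3 to P21, against 22.6% of all genes. Their mean went from 4.81 ± 0.57 at P3 (SD, n = 6) over 7.48 ± 0.54 in P8 replicates 1 to 4 (SD, n = 4) to 8.33 ± 0.28 at P21 (SD, n = 5). The P21 minus P3 difference was 3.52 (exact permutation adjusted p = 0.019). With that mean as a covariate, which follows age closely, 0 of the 42 ribosomal protein genes were called for P21 against P3, with a median of -1.15, and 0.0845% of all genes were called lower. From P8 to P21 12 of them were lower in that fit, against 7.65% of all genes. Oligodendrocyte content and age cannot be told apart in these arrays.

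Of the 12 cell division genes 11 fell, against 20.5% of all genes, with means of 6.37 at P3, 5.67 in P8 replicates 1 to 4 and 4.71 at P21 (P21 minus P3 -1.66, exact permutation adjusted p = 0.019). The mean of inhibitory neuron markers differed by -0.996 and that of oligodendrocyte precursors by -0.64 (exact permutation adjusted p = 0.019 and 0.0455). Of the 5 precursor genes tested 4 fell, against 20.5% of all genes, while Sox10 rose by 0.90 (limma adjusted p = 0.0166). Of the inhibitory genes in that mean, Slc6a5 and Gad2 did not pass the filter on low values. From P3 to P8 the granule cell mean differed by -0.72 (exact permutation adjusted p = 0.019). The means of astrocyte, microglial, endothelial and choroid plexus markers did not pass in any comparison, but such means can hold genes that moved in opposite directions. From P3 to P21 the astrocyte genes Slc1a3 and Aldh1l1 differed by -2.08 and -1.62, and Slc1a2 and S100b by 1.25 and 0.75 (limma adjusted p = 1.67e-06, 0.000293, 0.00104 and 0.0247). Of the granule cell genes Gabra6 rose by 4.48, while Pax6 and Reln differed by -1.54 and -1.69 (adjusted p = 2.55e-05, 0.00717 and 0.00941). Among 9 endothelial and mural genes Slco1a4 and Flt1 rose by 1.79 and 0.63 (adjusted p = 3.43e-06 and 0.0214). The part of these cells in the ribosomal protein levels was not tested.

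Other genes of the ribosome and of translation were read from lists in the same fit, where the same backgrounds of 20.5% lower and 22.6% higher apply. Of 50 factors that build ribosomes in the nucleolus 18 fell from P3 to P21 and 2 rose, with a median difference of -0.30. Nop58, a core protein of box C/D snoRNPs that methylate ribosomal RNA, fell by 1.10 ± 0.14 (limma adjusted p = 1.95e-05). Gar1, of the snoRNPs that make pseudouridine, fell by 1.25 ± 0.20 (adjusted p = 0.000133), and Ncl, nucleolin, by 0.80 ± 0.14 (adjusted p = 0.000262). In the single steps 5 fell and 2 rose to P8, and 3 fell and 0 rose after it, which is near or below the 8.0% and 10.1% of all genes that were lower in those steps.

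Among 15 genes of ribosomal RNA transcription and its control 6 fell and 3 rose. Mycn, a Myc family factor of growing neural cells, fell by 3.72 ± 0.34, from 8.59 at P3 over 7.17 in P8 replicates 1 to 4 to 4.88 at P21 (limma adjusted p = 8.26e-07). The 2 subunits shared by RNA polymerases I and III went apart: Polr1c rose by 1.503 ± 0.19 (adjusted p = 1.96e-05) and Polr1d fell by 1.29 ± 0.18 (adjusted p = 5.31e-05).

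Of 11 genes listed under translation elongation 6 fell and 2 rose (median -0.43). Besides elongation factors the list holds Gtpbp1, Eef1e1 and the kinase Eef2k, and the latter 2 were among those that fell. Eef1g and Eef1a1, parts of the complex that brings tRNA to the ribosome, fell by 0.84 ± 0.13 and 0.70 ± 0.11 (limma adjusted p = 0.000129 and 0.000186). Eif5a2, the second form of the hypusine-bearing factor, rose by 1.38 ± 0.20 (adjusted p = 6.89e-05). Of 33 initiation factor genes 14 fell and 2 rose (median -0.35). Eif1ax, which helps find the start codon, fell by 0.80 ± 0.11, Pabpc4, a poly(A)-binding protein, by 0.89 ± 0.13 and Eif4b, a helicase cofactor, by 0.86 ± 0.14 (adjusted p = 4.39e-05, 7.2e-05 and 0.000209).

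Of 27 genes of mTOR signalling, the pathway that controls TOP mRNAs, 7 rose and 0 fell, with a median difference of 0.20. The share that rose was near the 22.6% of all genes. Rragc, a Rag GTPase that brings mTORC1 to the lysosome, rose by 0.95 ± 0.13 (limma adjusted p = 3.29e-05), and the mTORC1 subunits Mlst8 and Rptor by 0.61 ± 0.12 and 0.68 ± 0.14 (adjusted p = 0.000881 and 0.00143). Among 12 partners of the ribosome at the membrane and at the nascent chain 4 fell and 2 rose. Rack1, a scaffold bound to the small subunit, fell by 0.73 ± 0.13 and Sec61a1, the translocon channel, fell by 1.70 ± 0.31 (adjusted p = 0.000481 and 0.000424), whereas Srp9 of the signal recognition particle rose by 1.46 ± 0.22 (adjusted p = 0.000106).

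Mitochondrial ribosomal protein genes, the nuclear genes for the separate ribosome of mitochondria, mostly rose where they were called. Of 72 tested 30 rose and 2 fell from P3 to P21, with a median difference of 0.40 (backgrounds 22.6% higher and 20.5% lower). Mrps23 rose by 1.18 ± 0.17 and Mrpl17 by 0.86 ± 0.13 (limma adjusted p = 7.33e-05 and 0.000123). From P3 to P8 10 rose and 1 fell, where 9.32% of all genes were higher. After P8 4 rose and 1 fell, a smaller share than the 9.71% of all genes that were higher. The cytosolic and mitochondrial genes thus had medians of -0.82 and 0.40 in the same arrays.

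**Figure D5:**
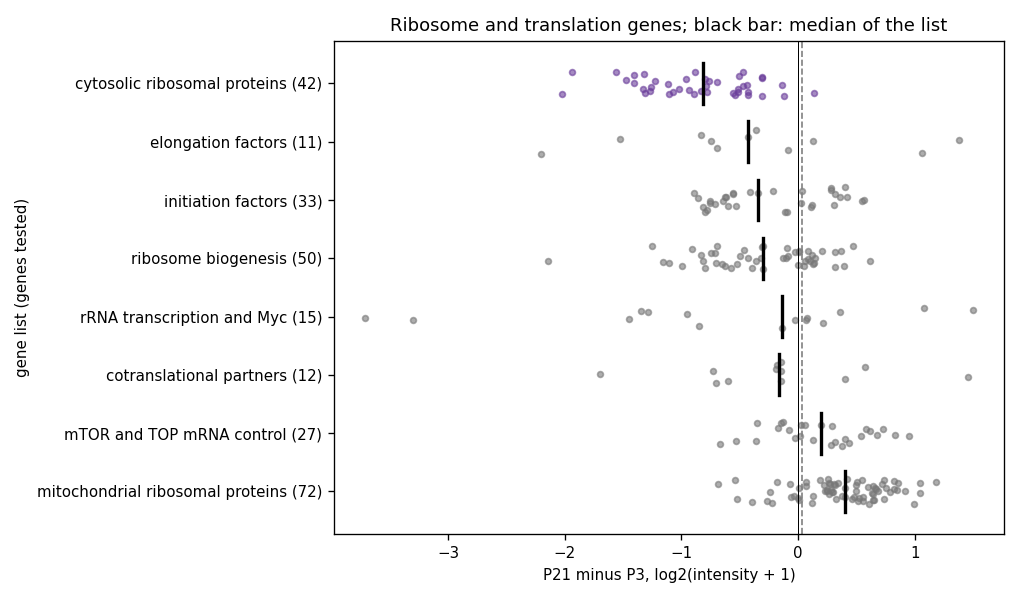
Difference of means between P21 and P3 in log2(intensity + 1) for each tested gene of 8 lists, 1 point per gene, with the median as a black bar and the number of genes tested in brackets; the dashed line is the median of all genes. The cytosolic ribosomal proteins have the lowest median (-0.82) and the mitochondrial ones the highest (0.40).

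Diamond-Blackfan anaemia is an inherited shortage of red cells caused by loss of 1 copy of a ribosomal protein gene. A list of 12 genes mutated in it, not a complete one, had 6 measured, with differences between -1.07 and -0.31. Of these 6 listed genes 5 fell from P3 to P21, against 20.5% of all genes, with a median of -0.73. That share, 83.3%, was near the 85.7% of the 42 tested ribosomal protein genes, whose median was -0.82. Rps24, which is needed to process the precursor of small subunit RNA, fell by 0.96 and Rpl35a by 0.47 (limma adjusted p = 0.000264 and 0.0229). The call of Rpl35a had an adjusted p of 0.0578 without P21 replicate 5. Among the 6 listed genes Rps29 was the 1 not called. In all, 32 of the 36 calls for P21 against P3 held in each of the 15 fits that left out 1 array. The exceptions were Rpl35a, Rps27l, Rpl18 (0.0826 without P3 replicate 3) and Rps28 (0.0804 without P21 replicate 3).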

How the data were processed

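Single-colour arrays of 20 animals were compared. The deposited table holds linear intensities, 1 per probe set and array, made by the authors with a tool not given in the sources used here; GCRMA is named per the submitters' processing notes, with no role. The mean intensity over the middle of each array's range was 100.0 on every array, so no scaling was added. The platform annotation gave 20826 of 31099 probe sets 1 gene, 436 several and 9780 none, with 57 controls. Values were analysed as log2(intensity + 1), which understates changes of dim genes, with limma 3.58.1 in R 4.3.3 (lmFit, eBayes, 3 ages in 1 fit) and Benjamini-Hochberg adjustment over 11834 genes (12691 over 20 arrays), called under 0.05. Array measures were compared by exact permutation. The fit was tested on simulated data.

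Genes and lists were chosen with earlier results of these data known. Named were the genes with the 8 smallest p for P21 against P3 and the 4 smallest for each other comparison, those called against the majority, and a fixed set by role. From each other list up to 3 called genes with the smallest p were named, and 2 for mitochondrial proteins. Genes named outside this rule were chosen after their values were seen. Promoters were matched by Entrez gene identifier. The number of arrays limits the precision. The labels call samples biological replicates without naming litters. Alternatives were other filters, scalings, pseudocounts, variance models, covariates, a replicate block, all 20 arrays and each array left out.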

Additional observations from a re-analysis of the deposited data

Results flagged for a closer look

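Dixon's criterion was applied to the named ribosomal protein genes and array measures in each group of 4 to 6 arrays, and 8 of 80 groups had an array far from the others, where chance gives about 1 in 20. Rps16 accounted for 3, with P3 replicate 1 at 9.73, P8 replicate 3 at 10.27 and P8 replicate 8 at 8.37. P3 replicate 1 was also low for Rps15a, at 9.57. P8 replicate 3 was high for Rpl22, at 9.74, and P8 replicate 7 was low for Rps15, at 3.57. P21 replicate 1 was low for Rpl7, at 8.66, and had the highest beta-actin 3′ minus 5′ difference of its age, at 5.51.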

How the results depend on the processing

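For P21 against P3 the count of 36 stayed between 34 and 38 under other filters, scalings, a pseudocount of 16 and other variance models. With the GAPDH and beta-actin 3′ minus 5′ covariates it was 32 and 35. It stayed between 33 and 37 with 1 array left out, but was 12 over all 20 arrays and 0 with the oligodendrocyte covariate. For P8 against P3 the count of 9 became 24 over 20 arrays, 15 with quantile normalization, 15 with array weights, 16 with the beta-actin covariate, 0 with the oligodendrocyte covariate and 5 to 13 with 1 array left out. For P21 against P8 the count of 19 became 9 over 20 arrays, 10 with only the ages compared, 12 with the oligodendrocyte covariate and 10 to 20 with 1 array left out. With the replicate number as a replicate block the counts were 31, 2 and 12; same-numbered arrays of different ages are different animals, their deviations correlated at -0.06 to 0.05 over 13 pairs, and 5 of 14 arrays correlated best with their own number, so the numbers were not used as pairs.

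Some single differences changed sign. Over 20 arrays Rps16 was -0.70 and Rps27l 1.05 for P8 against P3, and for P21 against P8 Rplp0 was 1.28, Rpl11 1.09, Rps3a 0.85, Rpl7 0.72, Rps15 0.66, Rpl24 0.32, Rps16 0.16, Rps15a 0.0657, Rps6 0.0613 and Rpl12 0.0133. With the oligodendrocyte covariate Rps27l was 0.16 for P21 against P3 and 0.38 for P8 against P3, and Rps16 -0.12 for P8 against P3. The cause was not tested. Counts of the other gene lists were not recomputed under the alternatives.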

Other observations

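Within the elongation factors the forms of eEF1A, which delivers tRNA to the ribosome, moved in opposite directions between P3 and P21. Eef1a1, the form of growing tissues, fell by 0.70 ± 0.11 (limma adjusted p = 0.000186), and Eef1a2, the form of mature neurons and muscle, rose by 1.07 (adjusted p = 0.00178). Eef2, which moves the ribosome along the mRNA, fell by 1.53 (adjusted p = 0.00186). Its inhibitory kinase Eef2k fell by 2.20 (adjusted p = 0.00291), from a mean of 5.49 at P3 to a dim 3.29 at P21. These genes other than Eef1a1 were singled out after their values were seen. Myc fell by 3.30 (adjusted p = 0.000153), with group means of 7.14 at P3 and 3.84 at P21, beside its relative Mycn. On P8 replicates 5 to 9 Eef1a1 averaged 8.05 and Eef1g 6.52, against 11.09 and 10.59 on P8 replicates 1 to 4.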
